A study of Mus musculus with 15 samples.

Results

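The constitutive proteasome was measured here through 40 genes, represented by 57 array probes, out of 11076 genes that 15324 probes of the series named by a single symbol. A gene was included when its annotated symbol began with Psma, Psmb, Psmc, Psmd, Psme, Psmf or Psmg, and Psmb8, Psmb9 and Psmb10 were left out because they encode the inducible subunits of the immunoproteasome. Of the 40 genes, 38 encode subunits, activators or assembly factors, and the other two, Psmc3ip and Psme3ip1, are named after a proteasome partner. Subunits of the complex with no probe among these 57, such as Psma1, Psma6 and Psmd3, were not analysed here.

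Ly6G+ neutrophils of BALB/c mice were taken from 3 sites, and their RNA was hybridized to Illumina mouse bead arrays. Naïve neutrophils (NN, 7 arrays) came from the bone marrow of mice without tumor. Granulocytic myeloid-derived suppressor cells (G-MDSC, 4 arrays) came from spleens of mice bearing flank tumors of AB12, a mouse mesothelioma cell line, 21 to 25 days after injection, and tumor-associated neutrophils (TAN, 4 arrays) came from smaller AB12 tumors at 12 to 15 days. RNA of 2 to 4 mice was pooled for every array, so that the spread between arrays is a spread between pools. Marrow was flushed and, by the methods, separated on a Percoll gradient, while spleens and tumors were digested and sorted, and the site, the preparation and the day cannot be told apart. The age and sex of the mice are not given in the sources used here.

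The proteasome is the protease that degrades proteins tagged with ubiquitin. Its core particle is a barrel of stacked rings, in which alpha subunits form the gated outer rings and beta subunits the inner rings, where Psmb5, Psmb6 and Psmb7 carry the active sites. The regulatory particle caps the barrel: the ATPases of its base unfold the substrate and open the gate, and its lid removes the ubiquitin. Other caps, the activators of the Psme family, open the core without ubiquitin, and a set of assembly chaperones helps to build core and base. In immune cells, interferon makes Psmb8, Psmb9 and Psmb10 replace the active subunits, which changes the peptides offered for antigen presentation.

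Values are log2 signals after background correction and quantile normalization, and the probe of highest mean signal stands for its gene. A gene rose or fell where limma's Benjamini-Hochberg adjusted p, over 16322 probes, was under 0.05. Of the 40 genes, 37 were above background on all 15 arrays, the exceptions being Psmc6, Psme2 and Psmd5. The signal of unused probes was higher on NN 6, NN 7 and all G-MDSC arrays (median 105 or more) than on NN 1 to NN 5 and all TAN arrays (94.3 or less), and no level held both G-MDSC and TAN. TAN 3 stood apart from the other TAN for many of the genes, as the values of each gene show. In these populations, fewer cells of a type and less RNA per cell cannot be told apart. From NN to TAN, 10 of 15 macrophage markers rose and 1 fell, with list means of 9.41 to 10.10 in NN and 10.86 to 12.17 in TAN, and 7 of 8 tumor or stroma markers rose. Of 12 neutrophil markers, 10 fell in TAN, with list means of 14.59 to 14.72 in NN and 11.85 to 12.71 in TAN. TAN 3 had the highest TAN mean of both the macrophage list (12.17, beside 10.86 to 11.47) and the neutrophil list (12.71, beside 11.85 to 12.01). From NN to G-MDSC all 8 erythroid markers and 10 of 11 markers of dividing precursors fell, the latter from list means of 10.19 to 10.69 to list means of 7.35 to 8.19. From NN to TAN all 8 erythroid markers fell too, and 8 of 11 markers of dividing precursors, to list means of 7.75 to 8.01. On G-MDSC 1 the list means of B cell (10.59) and T and NK cell markers (9.73) exceeded those of the other G-MDSC (7.26 to 7.55 and 7.17 to 7.40). The part of these cells in the proteasome values was not tested.

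Proteasome genes were lowest in G-MDSC and highest in TAN more often than the reverse. By group mean, G-MDSC was the lowest of the 3 populations for 25 of 40 genes and TAN the highest for 24, while NN was highest for 13 and lowest for 6. This ranking was not counted over all genes. TAN lay above NN for 24 of the 40, beside 6518 of all 11076 genes, and above G-MDSC for 31, beside 6462. G-MDSC lay below NN for 31 of the 40, beside 5696 of all genes. From NN to G-MDSC, 2 genes rose and 16 fell, with a median log2 difference of -0.26, whereas 18.3% of all genes rose and 19.7% fell, around a median of -0.01. From NN to TAN, 18 rose and 10 fell (median 0.18), beside 36.9% and 26.1% of all genes (median 0.12). From G-MDSC to TAN, 25 rose and 6 fell (median 0.54), beside 36.4% and 22.6% of all genes (median 0.13). The share of falls in G-MDSC and of rises from G-MDSC to TAN was thus above the background, and the share of rises from NN to TAN was less far above it. The groups did not overlap, with TAN the higher, for 22 genes against G-MDSC (28.1% of all genes) and for 12 against NN (25.3%), and G-MDSC lay wholly below NN for 15 (17.1%). The opposite non-overlap was found for 2 genes from NN to G-MDSC (16.6% of all genes), 4 from NN to TAN (19.2%) and 2 from G-MDSC to TAN (16.4%). The 3 comparisons share arrays, so that their counts are not independent of each other.

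**Figure D1:**
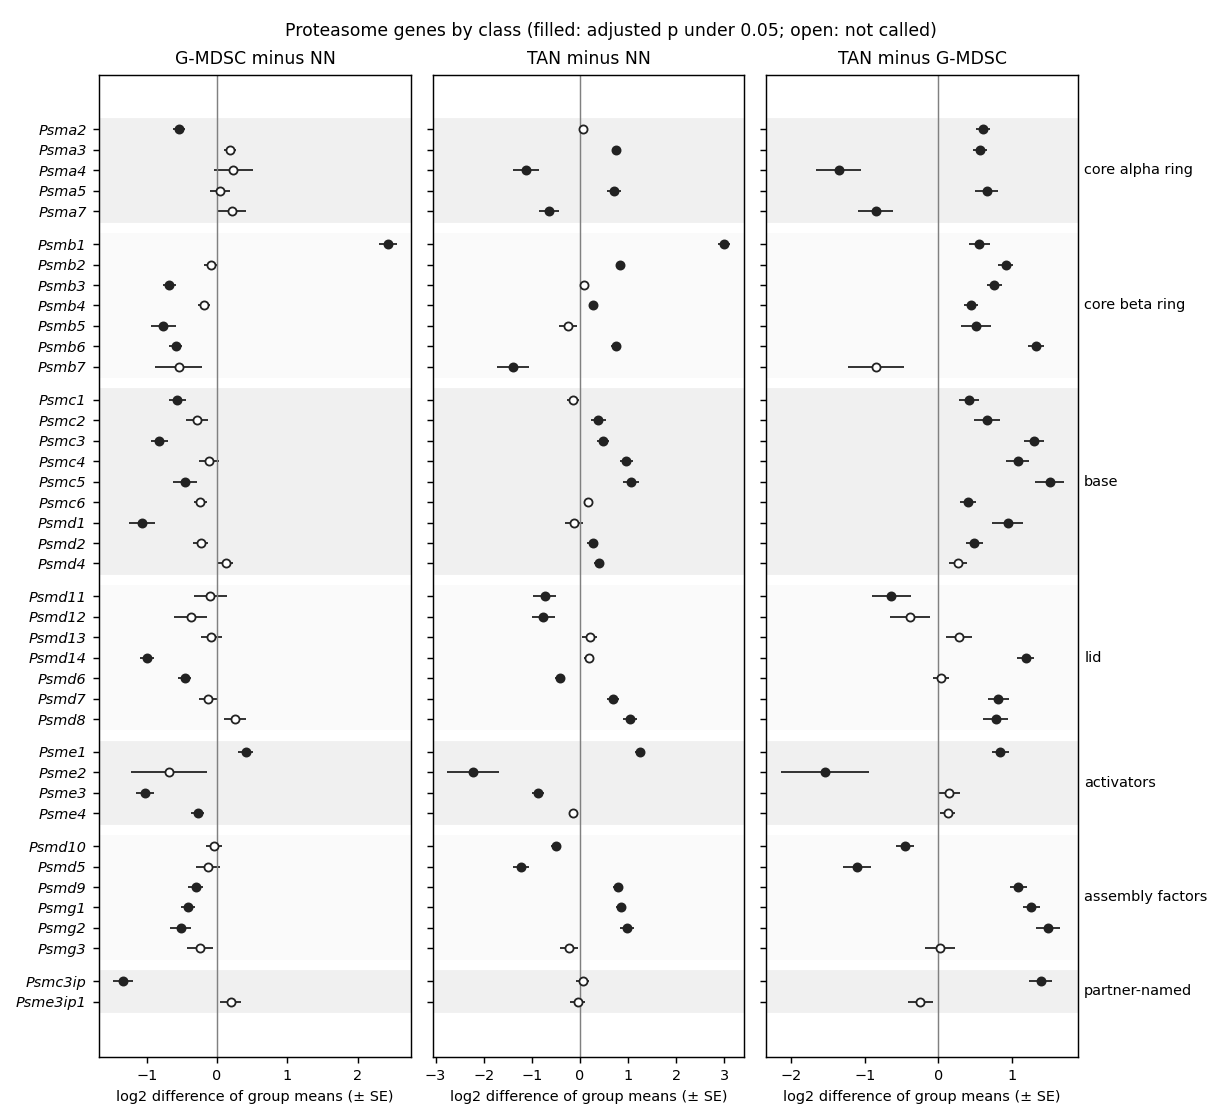
Log2 difference of group means (horizontal axis, bars are standard errors) of each of the 40 genes, ordered by class, for G-MDSC minus NN, TAN minus NN and TAN minus G-MDSC. Filled points passed an adjusted p of 0.05; in the right panel all 9 base genes lie above 0 and 8 of them are filled. Psmd5 was not above background on any TAN.

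Background level and single arrays moved some of these counts. When the background level entered the model as a block, 2 genes rose and 12 fell from NN to G-MDSC, beside 11.0% and 13.2% of all probes, and within the arrays of high background 1 rose and 13 fell, beside 13.2% and 14.5%. From G-MDSC to TAN the block left 20 of the 25 rises, beside 18.1% of all probes risen and 15.1% fallen, and none of the 6 falls was called, while 2 genes were lower at an unadjusted p under 0.05 (limma). With TAN 3 as the only TAN, 7 genes rose and 6 fell against NN, beside 20.2% and 19.99% of all probes, so that neither share of the members exceeded the background. Against G-MDSC 19 rose and 3 fell, beside 17.4% and 17.0%. Of the 18 genes that rose from NN to TAN, TAN 3 was the lowest TAN for 16, and of the 10 that fell it was the highest TAN for 6. The place of TAN 3 was not counted over all genes. Scaling the arrays by their medians in place of quantiles moved the median of all probes by up to 0.10 on the log2 scale (from 0.05 to -0.05 for TAN minus G-MDSC). Under it, 3 genes rose and 9 fell in G-MDSC in place of 2 and 16, with a median of -0.09, beside 20.9% and 12.9% of all probes. From G-MDSC to TAN 19 rose and 7 fell, with a median of 0.38, beside 23.0% and 29.8%.

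The classes did not move as a block. The mean of the 9 base genes, relative to its mean in NN, was -0.41 ± 0.04 in G-MDSC (SD, n = 4) and 0.38 ± 0.25 in TAN (SD, n = 4), with 0.01 on TAN 3 and 0.45 to 0.55 on the other TAN. For the 7 genes of the beta ring it was -0.06 ± 0.06 in G-MDSC and 0.47 ± 0.19 in TAN, where TAN 3 was the highest at 0.72. Psmb1 set much of that mean: in G-MDSC 6 of the 7 genes lay below NN, and without Psmb1 the mean of the other 6 was -0.48 ± 0.07 in G-MDSC and 0.04 ± 0.25 in TAN, with 0.39 on TAN 3 and -0.18 to 0.01 on the other TAN. The 5 alpha ring genes had 0.02 ± 0.14 and -0.05 ± 0.21, so that their mean stayed within the NN range on 3 of 4 G-MDSC and 2 of 4 TAN arrays. The 7 lid genes had -0.27 ± 0.11 in G-MDSC and 0.03 ± 0.13 in TAN, and the 6 assembly factors -0.28 ± 0.08 and 0.11 ± 0.04. The 4 activators had -0.40 ± 0.02 in G-MDSC and -0.50 ± 0.37 in TAN, where TAN 3 lay at 0.02 and the other TAN at -0.77 to -0.51.

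**Figure D2:**
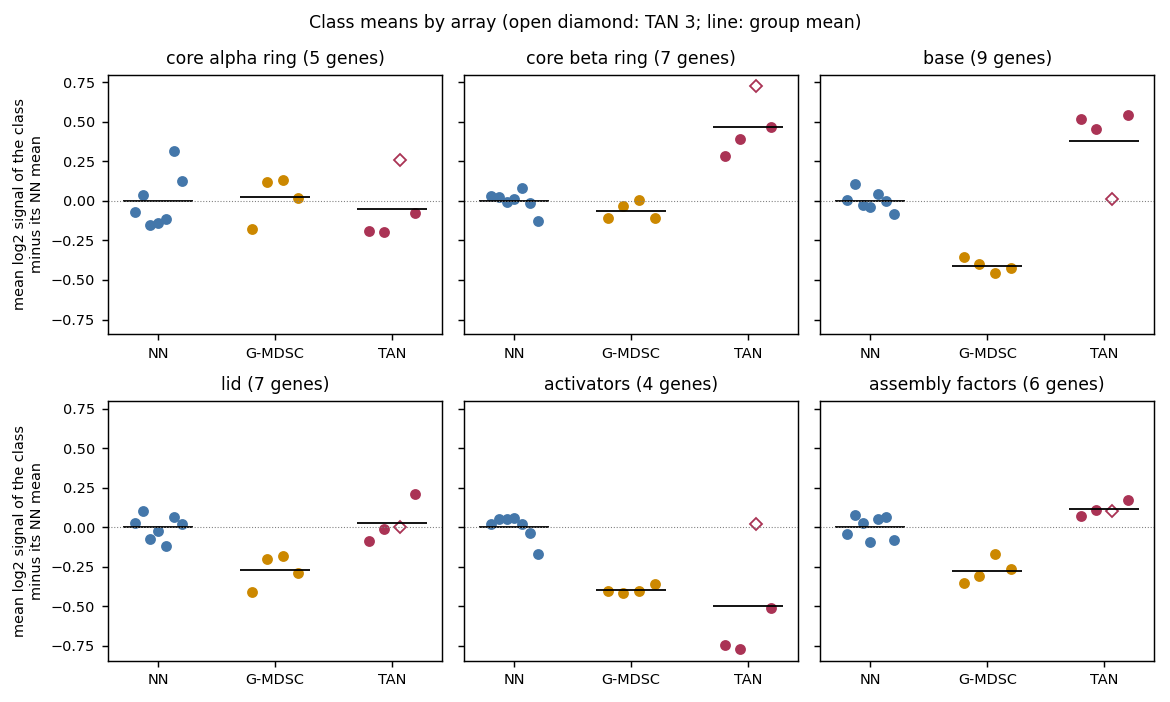
Mean log2 signal of each class on every array, minus the class mean over NN (vertical axis), by group; lines are group means and the open diamond is TAN 3. The 4 G-MDSC arrays lie below all NN for the base, the lid, the activators and the assembly factors, while the alpha ring overlaps between the groups. The beta ring includes Psmb1.

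In the beta ring, Psmb1 differed more from NN than any other of the 40 genes, both in G-MDSC and in TAN. It encodes a structural subunit without an active site. Its log2 signal was 8.93 to 9.58 (median 9.41) in NN, 11.95, 11.79, 11.73 and 11.64 in G-MDSC 1 to 4, and 12.41, 12.36, 12.05 and 12.54 in TAN 1 to 4. The groups did not overlap in any comparison. Psmb1 rose by 2.43 in G-MDSC (SE 0.13, adjusted p = 5.96e-10), which is 5.39-fold, and by 2.99 in TAN (SE 0.13, adjusted p = 1.72e-11), which is 7.95-fold. The further step from G-MDSC to TAN was 0.56 (SE 0.15, adjusted p = 0.00377), and 0.41 (adjusted p = 0.105) with median scaling. Psmb1 was measured by 1 probe, and no other core gene rose in G-MDSC.

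The catalytic subunits went different ways. Psmb6, which carries the caspase-like site, had 11.36 to 11.73 (median 11.68) in NN, 11.02, 10.96, 11.04 and 11.04 in G-MDSC, and 12.16, 12.41, 12.42 and 12.40 in TAN. All G-MDSC lay below NN and all TAN above it. It fell by 0.59 in G-MDSC (SE 0.09, adjusted p = 0.000115) and rose by 0.75 in TAN (SE 0.09, adjusted p = 4.24e-06), a difference of 1.33 between the tumor and the spleen (SE 0.11, adjusted p = 7.71e-08). With median scaling the difference in G-MDSC was -0.28 and not called.

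Psmb5, which carries the chymotrypsin-like site that proteasome inhibitor drugs chiefly bind, had 8.12 to 8.86 (median 8.53) in NN, 7.83, 7.88, 7.72 and 7.64 in G-MDSC, and 7.81, 8.04, 8.99 and 8.28 in TAN. All G-MDSC lay below all NN, while TAN ran from below the NN to above them. It fell by 0.77 in G-MDSC (SE 0.18, adjusted p = 0.00313), which was no longer called with a block for the background level (-0.52, adjusted p = 0.146). In TAN the difference from NN was -0.25 (SE 0.18, adjusted p = 0.237), and -0.49 (adjusted p = 0.00478) without TAN 3. The rise from G-MDSC to TAN, 0.51 (SE 0.20, adjusted p = 0.0408), lost its call without any single G-MDSC array, NN 2, NN 3, TAN 3 or TAN 4, at 0.28 to 0.55.

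Psmb7, which carries the trypsin-like site, was covered by 3 probes that disagreed in TAN. Its brightest probe had 11.30 to 11.52 (median 11.36) in NN, 10.51, 10.94, 11.07 and 10.81 in G-MDSC, and 9.12, 9.38, 11.69 and 9.75 in TAN. TAN 3 was above all NN and the other TAN were far below them. That probe fell by 1.40 in TAN (SE 0.34, adjusted p = 0.00186). In G-MDSC its difference was -0.55 (SE 0.34, adjusted p = 0.222), with no overlap between the groups, and it was called without TAN 3 (adjusted p = 0.00134), as was the step from G-MDSC to TAN, which was -0.85 with TAN 3 and -1.42 without it. The next probe had 6.76, 6.80, 11.71 and 7.06 in TAN beside 11.13 to 11.68 in NN, and fell by 3.27 (SE 0.69, adjusted p = 0.000618), while the dimmest had 11.21, 11.13, 10.05 and 10.91 beside 9.52 to 10.35, and rose by 0.95 (SE 0.19, adjusted p = 0.000495). The direction of Psmb7 in TAN therefore rests on the probe.

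The inducible subunits that take the place of these 3 are described for comparison. Psmb10, which replaces Psmb7, was 8.97 to 9.69 in NN, 10.61, 10.19, 10.10 and 10.50 in G-MDSC, and 13.23, 13.04, 12.78 and 12.56 in TAN, a rise of 0.93 (adjusted p = 0.00021) and of 3.49 (adjusted p = 3.28e-11). Psmb9, the counterpart of Psmb6, rose by 0.97 in G-MDSC (adjusted p = 8.77e-05) and 1.42 in TAN (adjusted p = 6.45e-07). Psmb8, the counterpart of Psmb5, had 7.15, 7.21, 10.57 and 7.69 in TAN and 8.59 to 9.11 in NN, and its difference from NN was not called in TAN (-0.63, adjusted p = 0.254). Its 4 G-MDSC values, 9.30 to 9.77, lay above all NN, a difference of 0.77 that was not called (adjusted p = 0.208), and from G-MDSC to TAN it fell by 1.40 (adjusted p = 0.0301). For Psmb8, TAN 3 again lay apart from the other TAN.

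**Figure D3:**
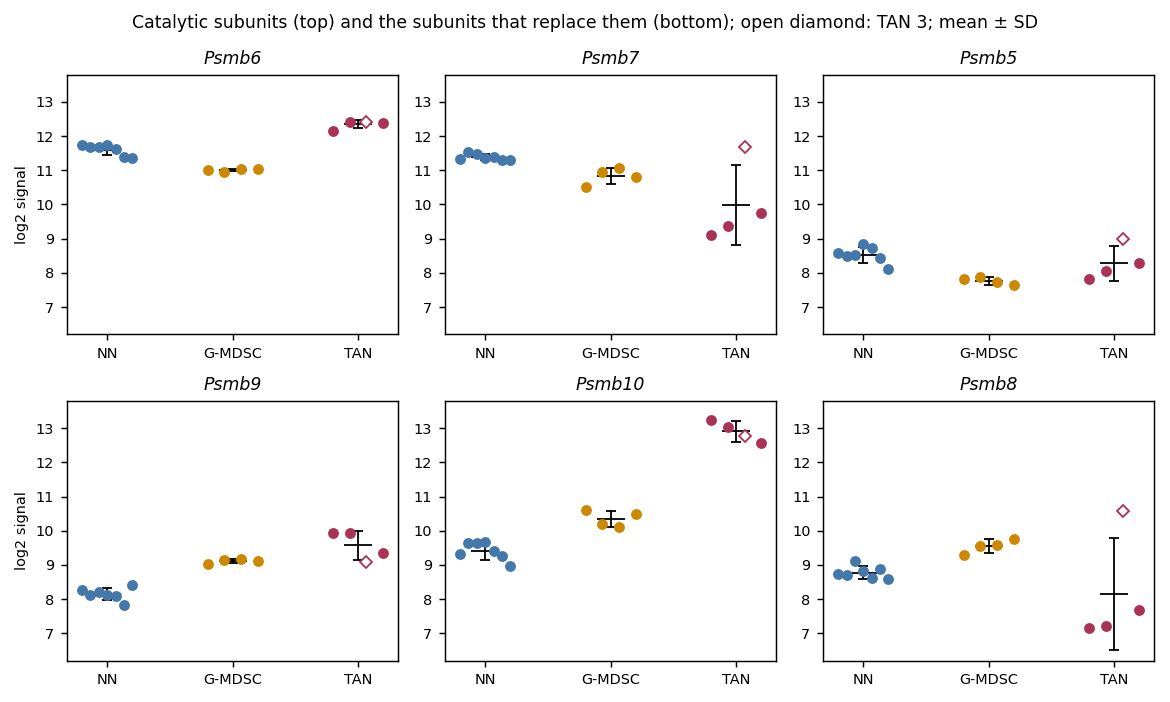
Log2 signal (vertical axis) of the catalytic subunits (top row) and of the inducible subunit that replaces each of them (bottom row) on every array, by group, with mean ± SD; the open diamond is TAN 3. Psmb10 and Psmb9 lie higher in G-MDSC and TAN than in NN, while TAN 3 lies apart from the other TAN for Psmb7 and Psmb8.

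The other beta ring genes are structural. Psmb2 rose by 0.83 in TAN (SE 0.09, adjusted p = 9.35e-07) and its 2 probes moved together, the other rising by 0.88. Psmb4 rose by 0.26 (SE 0.08, adjusted p = 0.0133), and neither Psmb2 nor Psmb4 was called in G-MDSC. Psmb3 fell by 0.68 in G-MDSC (SE 0.09, adjusted p = 1.96e-05) and did not pass the test in TAN (0.09, adjusted p = 0.439). All of Psmb2, Psmb3 and Psmb4 rose from G-MDSC to TAN, by 0.45 to 0.92, so that 6 of the 7 beta ring genes rose in that comparison, Psmb7 being the exception.

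In the alpha ring, Psma2, Psma3 and Psma5 rose from G-MDSC to TAN and Psma4 and Psma7 fell. Psma2 had 13.91 to 14.11 (median 13.97) in NN, 13.38, 13.47, 13.55 and 13.43 in G-MDSC and 14.22, 14.14, 13.86 and 14.03 in TAN. G-MDSC lay below both other groups, which overlapped. It fell by 0.54 in G-MDSC (SE 0.08, adjusted p = 9.04e-05), and the difference with median scaling, -0.10, was not called.

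Psma3 had 12.64 to 13.04 (median 12.86) in NN, 13.08, 13.07, 13.00 and 12.95 in G-MDSC and 13.70, 13.66, 13.41 and 13.61 in TAN, and it rose by 0.75 in TAN (SE 0.09, adjusted p = 1.99e-06). All TAN lay above all other arrays. The same held for Psma5, which had 11.56 to 12.34 (median 11.62) in NN, 11.79, 11.89, 11.85 and 11.86 in G-MDSC and 12.61, 12.52, 12.37 and 12.52 in TAN, and rose by 0.70 (SE 0.14, adjusted p = 0.00048). NN 6 and NN 7, the NN of high background, were the highest NN for Psma5, and within the high background arrays its difference in G-MDSC was -0.40 (adjusted p = 0.0261), against a difference of 0.04 over all NN.

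Psma4 and Psma7 were low on 3 of the 4 TAN arrays. Psma4 had 11.32 to 11.97 (median 11.44) in NN, 11.40, 11.88, 12.002 and 11.73 in G-MDSC and 9.81, 9.88, 11.68 and 10.21 in TAN. It fell by 1.12 against NN (SE 0.28, adjusted p = 0.00216) and by 1.36 against G-MDSC (SE 0.31, adjusted p = 0.00158), and TAN 3 lay within the range of NN. Psma7 behaved alike with both of its probes: the brighter had 9.86, 9.97, 11.12 and 10.40 in TAN beside 10.70 to 11.28 in NN and fell by 0.64 (SE 0.21, adjusted p = 0.0147), and the dimmer fell by 1.32 (SE 0.33, adjusted p = 0.00271). The fall of Psma4 from G-MDSC to TAN was not called when the background was blocked (-0.92, adjusted p = 0.16).

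By the brightest probes, the base held the most even change. Its ATPases Psmc1 to Psmc6 and the scaffold genes Psmd1 and Psmd2 rose from G-MDSC to TAN, by 0.41 to 1.52, and the ubiquitin receptor Psmd4 was 0.27 higher (adjusted p = 0.0724). Psmc5 and Psmd2 were the only base genes with another probe, and in both it fell in that comparison. The differences were -1.94 for Psmc5 (adjusted p = 0.00134) and -0.39 for Psmd2 (adjusted p = 0.0307), whose probe was not above background on any TAN. From NN to TAN, Psmc2, Psmc3, Psmc4, Psmc5, Psmd2 and Psmd4 rose and none of the 9 fell by its brightest probe, while the other probe of Psmc5 fell. From NN to G-MDSC, Psmc1, Psmc3, Psmc5 and Psmd1 fell and none rose.

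Psmc5 had the largest rise of the base in TAN. Its brighter probe had 9.95 to 10.44 (median 10.14) in NN, 10.08, 9.67, 9.43 and 9.62 in G-MDSC, and 11.40, 11.43, 10.53 and 11.51 in TAN. All TAN lay above all NN, TAN 3 being the nearest to them. It rose by 1.06 against NN (SE 0.17, adjusted p = 5.88e-05) and by 1.52 against G-MDSC (SE 0.19, adjusted p = 9.43e-06). It fell by 0.46 in G-MDSC (SE 0.17, adjusted p = 0.0459), a call that was lost without any single NN array other than NN 7 and without G-MDSC 2, 3 or 4, at adjusted p = 0.0559 to 0.154. The other probe of Psmc5 moved against it, with 6.84, 6.32, 9.36 and 6.87 in TAN beside 9.47 to 9.77 in NN, and fell by 2.29 (SE 0.39, adjusted p = 8.18e-05).

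Psmd1, a scaffold of the base, changed most of the base in G-MDSC. It had 7.91 to 8.30 (median 8.18) in NN, 7.03, 7.19, 6.92 and 7.16 in G-MDSC, and 8.24, 8.04, 7.20 and 8.59 in TAN. G-MDSC lay wholly below NN, and TAN 3 lay close to G-MDSC while the other TAN lay among or above the NN. Psmd1 fell by 1.07 in G-MDSC (SE 0.18, adjusted p = 0.000223), and its rise from G-MDSC to TAN of 0.94 (SE 0.21, adjusted p = 0.00115) was 0.74 and not called with a block for the background level (adjusted p = 0.0982). Psmd2, its partner, had 6.78 to 7.17 (median 6.93) in NN, 6.54, 6.95, 6.78 and 6.66 in G-MDSC, and 7.46, 7.09, 7.07 and 7.29 in TAN, near the background. It rose by 0.26 against NN (SE 0.11, adjusted p = 0.0452), a call lost with 9 of the 15 arrays when each was left out (NN 1, 2, 4, 6 and 7, G-MDSC 3 and 4, TAN 1 and 4; 0.18 to 0.27), and by 0.49 against G-MDSC (SE 0.12, adjusted p = 0.00244), while its other, dimmer probe was not above background on any TAN and on only 2 of 7 NN, so that its difference has no measured size.

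Of the remaining ATPases, Psmc4 rose by 0.96 in TAN (SE 0.14, adjusted p = 1.88e-05) with no overlap, and Psmc3 rose by 0.48 in TAN (SE 0.12, adjusted p = 0.00311) and fell by 0.82 in G-MDSC (SE 0.12, adjusted p = 5.75e-05). Psmc2 rose by 0.38 (SE 0.16, adjusted p = 0.0447). Psmc1 fell by 0.57 in G-MDSC (SE 0.12, adjusted p = 0.0018), with a difference of -0.15 in TAN (adjusted p = 0.325). Psmc6 was near background, above it in 1 of 4 G-MDSC, and was called from G-MDSC to TAN alone, at 0.41 (SE 0.11, adjusted p = 0.00367).

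By the brightest probes, the lid split in TAN. Psmd7 and Psmd8 rose from NN to TAN, Psmd11, Psmd12 and Psmd6 fell, and Psmd13 and Psmd14 did not pass the test. This split rests on the probe: the other probes of Psmd12 and Psmd6 rose, that of Psmd7 fell and that of Psmd11 was not called. Psmd14, the enzyme that cuts ubiquitin chains off the substrate, had 9.88 to 10.27 (median 10.20) in NN, 8.998, 9.18, 9.12 and 9.21 in G-MDSC, and 10.36, 10.34, 10.07 and 10.51 in TAN. G-MDSC lay below every other array by a wide gap. Psmd14 fell in G-MDSC, where its signal was 2.002-fold lower (SE 0.10 on the log2 scale, adjusted p = 1.23e-06), and it rose by 1.19 from G-MDSC to TAN (SE 0.12, adjusted p = 6.87e-07). Its difference between NN and TAN was 0.19 (SE 0.10, adjusted p = 0.124), and 0.27 (adjusted p = 0.0278) without TAN 3.

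Psmd8, a structural lid subunit, had 7.28 to 7.65 (median 7.43) in NN, 7.58, 7.85, 7.79 and 7.68 in G-MDSC, and 8.62, 8.87, 7.84 and 8.70 in TAN. All TAN lay above NN, while TAN 3 lay within the range of G-MDSC. It rose by 1.04 in TAN (SE 0.15, adjusted p = 2.06e-05), and its difference of 0.25 in G-MDSC (adjusted p = 0.211) was called without TAN 3 (adjusted p = 0.0296). Psmd7, the inactive partner of Psmd14, had 9.37 to 9.997 (median 9.50) in NN, 9.59, 9.37, 9.41 and 9.43 in G-MDSC, and 10.50, 10.44, 9.96 and 10.17 in TAN, a rise of 0.69 (SE 0.13, adjusted p = 0.00021). Its other probe, above background on 1 of 4 TAN, had 6.41, 6.19, 9.38 and 6.48 there beside 9.07 to 9.71 in NN and fell by 2.25 (SE 0.44, adjusted p = 0.000336).

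Of the scaffold genes of the lid that fell, Psmd6 had the most even values, with 7.47 to 7.91 (median 7.75) in NN, 7.19, 7.23, 7.40 and 7.27 in G-MDSC, and 7.35, 7.18, 7.31 and 7.41 in TAN. Both groups lay below all NN. It fell by 0.46 in G-MDSC (SE 0.09, adjusted p = 0.000971) and by 0.42 in TAN (SE 0.09, adjusted p = 0.000994), but its other probe rose by 0.52 in TAN (SE 0.13, adjusted p = 0.00267).

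Psmd12 had 9.93 to 10.08 (median 10.02) in NN, 9.32, 9.74, 9.80 and 9.72 in G-MDSC, and 8.58, 8.70, 10.32 and 9.43 in TAN. TAN 3 was the highest of all 15 arrays. It fell by 0.76 in TAN (SE 0.24, adjusted p = 0.0111), which was not called without TAN 1 (-0.54) or TAN 2 (-0.58), and the other probe of Psmd12 rose by 0.34 (SE 0.12, adjusted p = 0.022). In G-MDSC its difference was -0.38, called without TAN 3 (adjusted p = 0.0322) and not with it (adjusted p = 0.236), as was its difference from G-MDSC to TAN of -0.39 (adjusted p = 0.228), which was -0.74 without TAN 3. Psmd11 had 8.39 to 8.77 (median 8.63) in NN, 8.07, 8.81, 8.85 and 8.35 in G-MDSC, and 7.09, 7.45, 8.54 and 8.43 in TAN. It fell by 0.74 against NN (SE 0.24, adjusted p = 0.0128), not called without TAN 1 (-0.48) or TAN 2 (-0.60), and by 0.64 against G-MDSC (SE 0.27, adjusted p = 0.0493), a call that held without G-MDSC 1, TAN 3 or TAN 4 and was lost without any of the other 12 arrays. The other probe of Psmd11 was called in neither comparison, at -0.14 against NN (adjusted p = 0.308) and -0.04 against G-MDSC (adjusted p = 0.787).

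Among the activators, Psme1 rose and its partner Psme2 did not. Psme1 and Psme2 encode the alpha and beta chains of a ring that caps the core and is induced by interferon. Psme1 had 12.12 to 12.42 (median 12.30) in NN, 12.87, 12.56, 12.61 and 12.69 in G-MDSC, and 13.54, 13.48, 13.29 and 13.82 in TAN. By this probe, the brighter of 2, the 3 groups did not overlap. It rose by 0.41 in G-MDSC (SE 0.10, adjusted p = 0.00563) and by 1.26 in TAN (SE 0.10, adjusted p = 3.68e-08), which is 2.39-fold, and its other probe rose by 0.98 and 1.04. From G-MDSC to TAN the brighter probe rose by 0.85 (SE 0.12, adjusted p = 2.1e-05), while the other differed by 0.06 (adjusted p = 0.788), with 11.21 and 11.41 on TAN 1 and TAN 2, below all G-MDSC, and 12.22 and 12.20 on TAN 3 and TAN 4, above them. Within the high background arrays the rise in G-MDSC was 0.43 (adjusted p = 0.0554).

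Psme2 had 8.97 to 9.61 (median 9.57) in NN, 8.35, 8.76, 8.76 and 9.002 in G-MDSC, and 6.13, 6.41, 9.98 and 6.17 in TAN. TAN 3 was the highest of all 15 arrays and the only TAN above background. Over the 4 TAN, 3 of which were not above background, it fell by 2.23 (SE 0.54, adjusted p = 0.00186), while with TAN 3 as the only TAN the difference from NN was 0.58 (adjusted p = 0.0943). The difference in G-MDSC, -0.69, was not called (adjusted p = 0.342) but was called without TAN 3 (adjusted p = 0.000954). From G-MDSC to TAN it fell by 1.54 (SE 0.60, adjusted p = 0.0383), which was not called without G-MDSC 2, 3 or 4 or TAN 1, 2 or 4, at -1.53 to -1.20. Psme2 was measured by 1 probe.

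The nuclear activator Psme3 was lower in both tumor-bearing groups, with 11.79 to 12.26 (median 12.08) in NN, 11.19, 10.93, 10.94 and 10.92 in G-MDSC, and 11.14, 10.98, 10.86 and 11.60 in TAN. Both groups lay wholly below NN. It fell by 1.03 in G-MDSC (SE 0.13, adjusted p = 9.75e-06) and by 0.88 in TAN (SE 0.13, adjusted p = 2.2e-05). Psme4, an activator known for the degradation of acetylated histones, had 11.53 to 11.81 (median 11.65) in NN, 11.35, 11.44, 11.45 and 11.31 in G-MDSC, and 11.58, 11.42, 11.33 and 11.73 in TAN. It fell by 0.28 in G-MDSC (SE 0.09, adjusted p = 0.0235), not called without G-MDSC 4 (-0.25) nor with median scaling (0.04), and its difference of -0.15 in TAN (adjusted p = 0.16) was -0.22 and called without TAN 4 (adjusted p = 0.047). Its dimmer probe was not above background on any TAN.

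The assembly factors split by the particle they serve less than by gene. Psmg1 and Psmg2 form a chaperone pair for the alpha ring, and both fell in G-MDSC and rose in TAN. Psmg2 had 7.91 to 8.34 (median 8.01) in NN, 7.98, 7.20, 7.39 and 7.60 in G-MDSC, and 9.31, 9.13, 8.66 and 9.06 in TAN. All TAN lay above all other arrays, and G-MDSC 1 lay among the NN. It fell by 0.52 in G-MDSC (SE 0.15, adjusted p = 0.0118), not called without G-MDSC 2 (-0.40, adjusted p = 0.0596), and rose by 0.98 in TAN (SE 0.15, adjusted p = 2.72e-05). Its other probe fell by 0.53 in G-MDSC (adjusted p = 0.0215) and was 0.21 higher in TAN (adjusted p = 0.299). Psmg1 fell by 0.41 (SE 0.10, adjusted p = 0.00376) and rose by 0.85 (SE 0.10, adjusted p = 1.78e-06), and Psmg3 was called in no comparison.

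The base chaperones Psmd5, Psmd9 and Psmd10 disagreed in TAN. Psmd9 had 6.92 to 7.52 (median 7.16) in NN, 6.96, 6.92, 6.92 and 6.73 in G-MDSC, and 7.95, 8.05, 7.84 and 8.07 in TAN, where all 4 arrays lay above all others. It rose by 0.79 against NN (SE 0.10, adjusted p = 5.98e-06) and by 1.09 against G-MDSC (SE 0.12, adjusted p = 1.43e-06), while its dimmer probe, above background on 1 of 4 TAN, fell by 0.40 against G-MDSC (SE 0.16, adjusted p = 0.0418). It fell by 0.31 in G-MDSC (SE 0.10, adjusted p = 0.0278), which was not called without G-MDSC 2, 3 or 4 (-0.32 to -0.26). Psmd5 had 6.81 to 7.67 (median 7.35) in NN, 6.68, 7.19, 7.62 and 7.17 in G-MDSC, and 6.04, 5.98, 6.09 and 6.13 in TAN. It was not above background on any TAN, which makes it at least 1.70-fold lower there than in NN (adjusted p = 1.18e-05) and at least 1.56-fold lower than in G-MDSC (adjusted p = 0.00017), a bound that divides the mean of the brighter group by the mean, over the TAN arrays, of the dimmest signal above background on each.

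Psmd10, known as gankyrin, had 10.68 to 11.05 (median 10.93) in NN, 10.60, 10.88, 11.02 and 10.89 in G-MDSC, and 10.42, 10.60, 10.14 and 10.43 in TAN. It fell by 0.49 in TAN (SE 0.11, adjusted p = 0.000913), and its other probes fell by 0.89 and fell by 2.30. The last of these, above background on TAN 3 alone among the TAN, had 6.16, 6.23, 7.64 and 6.25 there beside 8.56 to 9.32 in NN. All 3 probes therefore fell, by amounts that differed.

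Of the genes named after a partner, Psmc3ip, which acts with the recombinases of meiosis, had 8.16 to 8.81 (median 8.44) in NN, 7.39, 6.88, 6.98 and 7.20 in G-MDSC, and 8.56, 8.59, 8.31 and 8.57 in TAN. G-MDSC lay wholly below NN and TAN. It fell by 1.34 in G-MDSC (SE 0.14, adjusted p = 9.63e-07), the largest fall of the 40 genes there, and rose by 1.40 from G-MDSC to TAN (SE 0.15, adjusted p = 2.13e-06). Psme3ip1, which binds the activator Psme3, was called in no comparison.

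Across the 3 comparisons, genes are sorted here by the calls of their brightest probe alone. By these, 9 genes rose in TAN against both other groups without a call in G-MDSC (Psma3, Psma5, Psmb2, Psmb4, Psmc2, Psmc4, Psmd2, Psmd7 and Psmd8). Another 7 fell in G-MDSC and rose from G-MDSC to TAN with no call between NN and TAN (Psma2, Psmb3, Psmb5, Psmc1, Psmd1, Psmd14 and Psmc3ip), and 6 fell in G-MDSC and rose in TAN against both (Psmb6, Psmc3, Psmc5, Psmd9, Psmg1 and Psmg2). In TAN, 6 fell against both groups with no call in G-MDSC (Psma4, Psma7, Psmd11, Psme2, Psmd10 and Psmd5). Psmb1 and, by its brighter probe, Psme1 rose in all 3, and Psmd13, Psmg3 and Psme3ip1 were called in none. These patterns were not counted over all genes, so that no share stands beside them.

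Probes of the same gene disagreed mainly in TAN. Of the 15 members with several probes, 5 had probes called in opposite directions from NN to TAN (Psmb7, Psmc5, Psmd12, Psmd6 and Psmd7), beside 13.0% of 2957 genes with several probes, and 5 from G-MDSC to TAN (Psmb7, Psmc5, Psmd2, Psmd7 and Psmd9), beside 11.8%, although the falling probe was above background on 0 of 4 TAN for Psmd2 and on 1 of 4 for Psmd7 and Psmd9. From NN to G-MDSC there were 0 members, beside 1.12%. Their log2 differences lay over 1 apart for 6 members from NN to TAN (39.1% of genes), 5 from G-MDSC to TAN (36.3%) and 0 from NN to G-MDSC (8.93%). Relative to NN, the probes of 4 members lay over 4-fold apart on each of TAN 1, TAN 2 and TAN 4, and of 0 members on TAN 3, the G-MDSC or the NN arrays. Over all genes with several probes that share was 22.6%, 22.0% and 17.5% on TAN 1, TAN 2 and TAN 4 and 5.48% on TAN 3. It was 1.32% to 2.47% on the G-MDSC arrays and 0% on the NN arrays, from whose mean the distances were taken. By this measure TAN 3 lay nearer to the G-MDSC arrays than the other TAN did. The 25 members with 1 probe cannot be compared in this way. Of these, 11 rose and 4 fell from NN to TAN (median 0.19), and of the 15 with several probes 7 rose and 6 fell by the brightest probe (median -0.05). From G-MDSC to TAN 18 and 7 rose and 3 of each fell (medians 0.57 and 0.13). Over all 57 probes, 23 rose and 17 fell from NN to TAN (median 0.06), and 30 rose and 15 fell from G-MDSC to TAN (median 0.42).

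**Figure D4:**
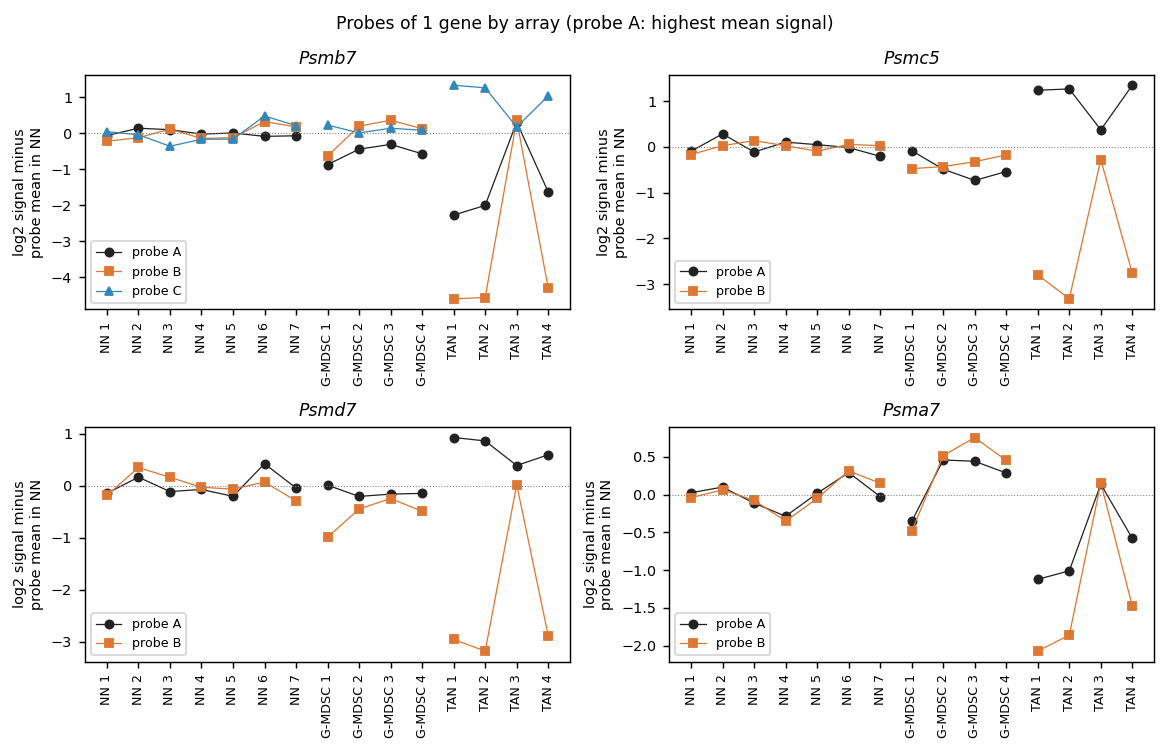
Log2 signal of each probe of Psmb7, Psmc5, Psmd7 and Psma7 on the 15 arrays (horizontal axis), minus its mean over NN (vertical axis); probe A has the highest mean signal of its gene. The probes of Psmb7, Psmc5 and Psmd7 part on TAN 1, TAN 2 and TAN 4 and come together on TAN 3, and those of Psma7 fall together.

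Genes that work with the proteasome were counted in the same way. Of 19 measured genes of this list, 3 rose and 6 fell from NN to G-MDSC, 8 rose and 4 fell from NN to TAN, and 11 rose and 3 fell from G-MDSC to TAN. As shares of the list, 15.8% rose and 31.6% fell in G-MDSC, 42.1% rose and 21.1% fell from NN to TAN, and 57.9% rose and 15.8% fell from G-MDSC to TAN, beside 18.3% and 19.7%, 36.9% and 26.1%, and 36.4% and 22.6% of all genes. Zfand2a, which binds the proteasome when arsenite damages proteins, had 8.86 to 9.38 in NN, 13.20, 11.31, 11.66 and 11.20 in G-MDSC, and 12.91, 12.95, 12.17 and 12.96 in TAN. No array of either group reached down to NN, and G-MDSC 1 was the highest of all 15. It rose by 2.80 in G-MDSC (SE 0.30, adjusted p = 1.49e-06) and by 3.70 in TAN (SE 0.30, adjusted p = 2.31e-08). Its relative Zfand2b fell by 0.87 (SE 0.12, adjusted p = 2.96e-05) in the spleen and fell by 0.81 (SE 0.12, adjusted p = 2.75e-05) in the tumor.

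Usp14, a deubiquitinase on the base, fell by 0.62 in G-MDSC (SE 0.10, adjusted p = 8.33e-05) and rose by 0.79 in TAN (SE 0.10, adjusted p = 2.98e-06), with no overlap between any of the groups. Uchl5, the other deubiquitinase there, fell by 0.76 in TAN (SE 0.17, adjusted p = 0.0011), and so did its other 2 probes. The core chaperone Pomp rose by 0.70 in TAN (SE 0.09, adjusted p = 8.49e-06) and the small lid subunit Sem1 fell by 0.65 in G-MDSC (SE 0.10, adjusted p = 4.44e-05) and 0.77 in TAN (SE 0.10, adjusted p = 3.42e-06). Vcp, the unfoldase that delivers substrates, fell by 0.73 in G-MDSC (SE 0.12, adjusted p = 0.000157), and its cofactor Nploc4 fell by 2.01 in TAN (SE 0.28, adjusted p = 1.17e-05), where TAN 3 had 8.77 and the others 6.59 to 7.50. Sqstm1, which carries ubiquitin-tagged cargo to autophagy, rose by 1.04 in G-MDSC (SE 0.30, adjusted p = 0.0136) and was 0.11 lower in TAN (adjusted p = 0.768), with 12.62 on TAN 3 beside 10.38 to 11.30. With the background blocked the rise of Sqstm1 was not called (adjusted p = 0.136). From G-MDSC to TAN the ligase Ube3c rose by 0.9999 (SE 0.14, adjusted p = 2.16e-05), and the shuttle Ubqln1 rose by 0.98 with its brightest probe (SE 0.22, adjusted p = 0.00153) and fell with its other 3. That rise of Ubqln1 was 0.70 and not called with the background blocked (adjusted p = 0.139). With median scaling the falls of Sem1 (-0.21, adjusted p = 0.364) and Vcp (-0.38, adjusted p = 0.0975) in G-MDSC were not called.

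Nfe2l1 encodes the transcription factor that raises proteasome genes when the proteasome is inhibited, and Nfe2l2 its relative in the response to oxidants. Nfe2l1 had 10.94 to 11.20 (median 11.15) in NN, 10.86, 10.56, 10.51 and 10.73 in G-MDSC, and 11.84, 11.84, 10.49 and 11.95 in TAN. TAN 3 was the lowest of all 15 arrays and the other TAN the highest. It rose by 0.87 from G-MDSC to TAN (SE 0.24, adjusted p = 0.00531), and its difference between NN and TAN was 0.42 (adjusted p = 0.0943), and 0.76 without TAN 3 (adjusted p = 2.08e-06). The rise from G-MDSC was not called with the background blocked (0.70, adjusted p = 0.171) or with median scaling (0.66, adjusted p = 0.0832). Nfe2l2 rose by 1.51 in G-MDSC (SE 0.34, adjusted p = 0.00251) and by 2.01 in TAN (SE 0.34, adjusted p = 0.000101), with 6.61 to 8.55 in NN and 9.12 to 9.48 in TAN. NN 6 and NN 7, of high background, had 8.02 and 8.55, G-MDSC 1 lay below both at 7.96, and within the high background arrays the difference in G-MDSC was 0.58 and not called (adjusted p = 0.385).

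Both factors are known to bind the antioxidant response element, here searched as TGACNNNGC on both strands in RefSeq promoters of build GRCm38.p6, each holding 250 bases before and 50 after a start site. A promoter was found for 34 of the 40 genes (37 promoters), and 6 of those promoters held the motif (Psmb5, Psmb6, Psmc6, Psmd12, Psmd9 and Psme4), or 16.2%, beside 12.4% of all 32851 promoters. The element is shown in capitals for the 4 of these genes that rose from G-MDSC to TAN. Psmb5 lies on the minus strand of chromosome 14 (chr14:54618018-54618058), Psmb6 on the plus strand of chromosome 11 (chr11:70525332-70525356), Psmc6 on the plus strand of chromosome 14 (chr14:45329581-45329621) and Psmd9 on the plus strand of chromosome 5 (chr5:123228143-123228183). Each is given from 5′ to 3′ on the strand of its gene, and in Psmc6 the motif is on the opposite strand.
Psmb5: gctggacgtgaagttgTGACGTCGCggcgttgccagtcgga
Psmb6: ggcggactaaagagagTGACGGAGC
Psmc6: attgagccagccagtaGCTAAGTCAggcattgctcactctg
Psmd9: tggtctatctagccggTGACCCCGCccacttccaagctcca
In Psmb5, Psmb6 and Psmd9 the motif ends 39, 1 and 23 bases before the start site, and in Psmc6 it ends 219 bases before it. A match of letters is a description, and no binding was measured. The other 28 genes with a promoter had no such letters in this window.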

How the data were processed

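The deposited array files hold, by the methods, probe intensities summarized by the authors in BeadStudio 3.0, neither background corrected nor normalized, with no detection p-values or control probes. The authors also deposited a table of normalized intensities for 16322 probes, and their methods name a filter on undetected and little-varying probes, which was not checked in full here. Raw intensities were corrected with normexp (offset 50), quantile normalized and put on the log2 scale. All 15 arrays entered 1 model in limma 3.58.1 (R 4.3.3) with eBayes, and two-sided p-values were adjusted by Benjamini-Hochberg over those 16322 probes, of which 998 had no symbol in the platform annotation used.

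Every other probe of a named gene was compared with its brightest. Above background means over the 95th percentile, on that array, of 9375 probes outside the authors' table. The number of arrays limits the precision. Nothing says whether pools of a group share mice, so that p-values measure the spread between these samples. On simulated data for TAN against NN (16322 probes, 100 changed by each size), 88% of genes changed by 1 log2 unit and 99% of those changed by 2 were recovered. On the arrays 32.7% of probes rose and 29.1% fell from NN to TAN. The median SD over all genes was 0.16 in NN and 0.26 in TAN. Recovery at that share of changed probes, at that unequal spread or in the comparisons with G-MDSC was not tested.

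The members, classes and lists were chosen with earlier results of these data known. Every member is named with its calls. Values on every array are given for the called member of each class with the largest difference in each direction per comparison, for the catalytic subunits and the activators, and for genes whose probes disagreed. Of the linked genes, the 3 with the largest differences in each direction per comparison are named, with Pomp, Nfe2l1 and the promoter motif added after their values were seen. Alternatives were other background corrections, scalings, filters, probes, blocks and weights, the methods' unmoderated model, the authors' table and each array left out.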

Additional observations from a re-analysis of the deposited data

Results flagged for a closer look

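In 8 of 120 groups of 4 or 7 arrays tested, 1 array's log2 signal stood far from those of its group, and chance flags about 1 in 20 groups. Of these arrays, 6 were TAN 3. Psmc2 had 12.25 on TAN 3 and 12.90 to 13.00 on the other TAN. Psmc4 had 11.36 on TAN 3 and 12.01 to 12.14 on the others. Psmc5 had 10.53 on TAN 3 and 11.40 to 11.51 on the others. Psmd13, a lid subunit, had 11.73 on TAN 3 and 12.60 to 12.70 on the others. Psmc3ip had 8.31 on TAN 3 and 8.56 to 8.59 on the others. Psme2 alone was higher there, with 9.98 on TAN 3 and 6.13 to 6.41 on the others. Psmb6 had 12.16 on TAN 1 and 12.40 to 12.42 on the other TAN, and Psme3 had 11.19 on G-MDSC 1 and 10.92 to 10.94 on the other G-MDSC.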

How the results depend on the processing

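Over the results of single genes and all settings, 2104 values kept their call, 45 gained a call and 133 lost one. Another 32 turned direction and were called in the main or the other setting. Differences called in neither count among the 2104 even where their sign changed. An example is Psmd1 from NN to TAN, at -0.13, and at -0.32 to 0.15 with each array left out. With median scaling 9 member genes fell from NN to G-MDSC, beside 12.9% of all probes, and Psme4 differed by 0.036 there. With the background level blocked, 0 fell from G-MDSC to TAN by limma (2 were lower at an unadjusted p under 0.05), and Psma5 differed by -0.40 from NN to G-MDSC, as it did within the arrays of high background, where 1 gene rose. With array weights 7 rose from NN to G-MDSC, beside 29.6% of all probes, and 5 did without G-MDSC 1 and TAN 3 together, beside 24.5%. With TAN 3 as the only TAN, whose spread is then assumed to equal that of the other groups, 7 rose and 6 fell against NN and 3 fell against G-MDSC. Its differences from NN turned for Psma4 (0.16), Psmb7 (0.31), Psmd12 (0.30) and Psme2 (0.58), and those from G-MDSC for Psmb7 (0.86), Psmd11 (0.018), Psmd12 (0.68) and Psme2 (1.26). With the dimmest probe of each gene, an alternative chosen after seeing the data, 10 fell from G-MDSC to TAN. Under it the differences of TAN from NN and from G-MDSC turned for Psmb7 (0.95 and 0.83), Psmc5 (-2.29 and -1.94), Psmd2 (-0.21 and -0.39), Psmd12 (0.34 and 0.57), Psmd7 (-2.25 and -1.70) and Psmd9 (-0.32 and -0.40). These probes of Psmd2 and Psme4 were not above background on any TAN. It also turned Psmd6 from NN to TAN (0.52), Psme4 from G-MDSC to TAN (-0.38), and Psme4 (0.10) and Psmd9 (0.076) from NN to G-MDSC. With the mean over probes, Psmc5 (-0.62 and -0.21) and Psmd7 (-0.78 and -0.44) turned against NN and G-MDSC, and Psmd6 against NN (0.051). The cause was not tested.

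With each array left out in turn, 2 to 3 genes rose and 13 to 20 fell from NN to G-MDSC, beside 15.2% to 22.7% and 15.6% to 22.5% of all probes. From NN to TAN 16 to 21 rose and 7 to 12 fell, beside 29.3% to 36.3% and 27.0% to 30.4%. From G-MDSC to TAN 23 to 26 rose and 4 to 8 fell, beside 28.7% to 36.3% and 24.0% to 28.6%. Of 78 results of single genes, 19 changed their call without at least 1 array, 9 of them without TAN 3. Deviations of arrays with the same replicate number correlated at -0.31 to 0.27. Arrays of different numbers were not compared, so that this cannot settle whether the numbers pair the arrays. With the replicate number as a block, 2 genes rose and 14 fell from NN to G-MDSC, beside 16.7% and 18.2% of all probes. Under this block 17 rose and 9 fell from NN to TAN, beside 28.1% and 26.0%, and 24 rose and 4 fell from G-MDSC to TAN, beside 31.0% and 25.9%.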
